A study of Mus musculus with 20 samples.

Results

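The endothelial genes described here are 10 transcripts of blood vessel cells, Pecam1, Kdr, Flt1, Cdh5, Emcn, Ehd3, Plvap, Tek, Egfl7 and Sele, taken by their symbols from the 55822 genes of a mouse kidney count table. All 10 were found, each in a single row, and all 10 were among the 16266 genes that passed a filter on low counts. RNA was sequenced in bulk from whole kidney of C57BL/6J mice, a standard inbred strain, all male and aged 8 weeks when used. Control mice received phosphate-buffered saline (PBS) and treated mice received puberulic acid, a tropolone compound of Penicillium moulds, at 1 mg per day. Dosing ran for 6 days and kidneys were taken on day 7, after a day without dosing. Each of these groups had 5 libraries. The route was oral according to the design text and either gavage or intraperitoneal injection according to the treatment protocol, which leaves it unresolved here. A further 10 columns, 5 named o1000 and 5 named x1000, carry the 1000 mg per day dose of Choleste-Help, a dietary supplement given as a normal and a toxic lot. Their names do not show which lot each holds, so their values are given by column name, without a lot and without a test.

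Endothelial cells line every blood vessel, and in the kidney they differ sharply by place. Glomerular capillaries are fenestrated filters that lie against podocytes, whose VEGF-A acts on endothelial VEGF receptors. Peritubular capillaries run along the tubules and have fenestrae closed by diaphragms. Endothelium activated by inflammatory signals displays adhesion molecules, among them E-selectin, which catch passing leukocytes.

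With puberulic acid, 3 of the 10 genes fell: Kdr, which encodes the main signalling receptor for VEGF-A (VEGFR2), Ehd3, a membrane-trafficking gene used as a marker of glomerular endothelium, and Egfl7, a secreted matrix protein of endothelium. Sele, which encodes E-selectin, rose from near the limit of detection, and it entered the test only through its reads in the treated group. The 6 others, Pecam1, Flt1, Cdh5, Emcn, Plvap and Tek, did not pass the test. These calls are relative to most kidney genes, and when libraries were scaled by total counts none of the 3 that fell was called. Within a library, Kdr and Ehd3 were low against Pecam1 in every treated library, with no overlap with the controls, whereas Cdh5 and Flt1 kept overlapping ratios to Pecam1. Such gaps were common: taken against Cdh5, 23.1% of all genes tested had ratio ranges that did not overlap. The test was the quasi-likelihood test of edgeR, with p-values adjusted over all genes tested by Benjamini-Hochberg and a threshold of 0.05. By it 65.3% of all genes were called, 34.2% higher and 31.1% lower, so a call of 4 genes in 10 is no more than the background of this comparison. The median log2 fold change of the 10 genes was -0.32, against 0.05 over all genes tested. In bulk tissue, fewer endothelial cells and less RNA per endothelial cell cannot be told apart.

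Promoter sequences in RefSeq (GRCm38.p6) were matched for 7 of the 10 genes, and those of Sele, Kdr and Ehd3 are printed because these genes moved against the other endothelial transcripts. Each run holds the 250 bases before the annotated start, written on the gene's own strand. Capitals mark matches, on either strand, to 5 short motifs. These are a loose form of the NF-κB site, GGG and TCC with any 4 bases between them, the ETS motif CNGGAAG, the TATA box TATAAA, the AP-1 motif TGANTCA and the GATA motif AGATAA. The Sele window is chr1:164047984-164048233 (plus strand), the Kdr window chr5:75978456-75978705 (minus strand) and the Ehd3 window chr17:73804591-73804840 (plus strand).
Sele: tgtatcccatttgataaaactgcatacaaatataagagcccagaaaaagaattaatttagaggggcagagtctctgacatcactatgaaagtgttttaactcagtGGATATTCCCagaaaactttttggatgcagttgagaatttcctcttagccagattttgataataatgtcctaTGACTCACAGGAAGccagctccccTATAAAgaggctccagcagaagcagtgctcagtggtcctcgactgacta
Kdr: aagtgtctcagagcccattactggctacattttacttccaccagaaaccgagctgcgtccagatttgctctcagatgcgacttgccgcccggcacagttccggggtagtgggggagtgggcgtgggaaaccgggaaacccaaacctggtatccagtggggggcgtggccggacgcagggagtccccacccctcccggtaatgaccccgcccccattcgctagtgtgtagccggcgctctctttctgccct
Ehd3: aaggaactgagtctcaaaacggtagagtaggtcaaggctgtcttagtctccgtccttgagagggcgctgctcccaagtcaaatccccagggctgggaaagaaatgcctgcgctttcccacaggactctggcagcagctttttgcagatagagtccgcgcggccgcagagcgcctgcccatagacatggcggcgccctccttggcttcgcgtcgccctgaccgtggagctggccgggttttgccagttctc

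The Sele window held 4 of the 5 motifs. GGATATTCCC, a match to the loose κB form on the other strand, began 145 bases before the start, the AP-1 match TGACTCA 73, the ETS match CAGGAAG 66 and the TATA match 49 bases before it. None of these 4 matches overlapped another. The Kdr and Ehd3 windows held none of the 5. Matches were not particular to Sele: of 3 Egfl7 windows, 1 held the ETS motif and 1 held the ETS motif and the loose κB form, Flt1 held ETS and TATA matches, Emcn an ETS match and Tek a loose κB match. A pair of stricter κB forms was searched first, GGG and TTTCC with 2 bases between them and GGG and TTCC with 3, and neither is in the Sele window, while the form with 3 is in an Egfl7 window. The looser form was chosen after that sequence had been seen, and it is common: 16.5% of all 32851 promoter windows of this length hold it, against 1.41% and 4.65% for the stricter forms. The other shares were 26.6% for CNGGAAG, 12.4% for TATAAA, 6.75% for TGANTCA and 9.99% for AGATAA. A match is a run of letters and not a measured site, and its absence from the other windows says nothing about a factor.

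Totals of estimated counts ran from 18409877 to 24705587 per library. Levels are given as counts scaled to a library of 1000000 (CPM), with library sizes corrected by trimmed-mean (TMM) factors and all 20 columns on the same scale. The control factors (0.827 to 0.848) and the treated factors (1.17 to 1.26) were far apart. Scaling by total counts instead raised the median log2 fold change of all genes to 0.56, with 56.4% of genes called higher and 15.5% lower, and under it none of the 10 genes but Sele, which the filter kept for its treated reads, was called. Kdr then stood at -0.32 (adjusted p = 0.267), Ehd3 at -0.59 (0.0765) and Egfl7 at 0.05 (0.696). A log2 fold change of an endothelial gene below therefore compares it with the bulk of kidney genes, while the ratios within a library do not depend on the scaling. Of the tubule markers listed for a check of the tissue, 6 of 7 fell and none rose (4 and 1 under total-count scaling), among them Slc34a1, the proximal tubule phosphate carrier, from 4803 to 117 CPM. Umod, the uromodulin gene of the thick ascending limb, was at 3335 CPM in controls and at 3476 CPM in the treated libraries. These defining kidney transcripts were present in both groups.

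**Figure D1:**
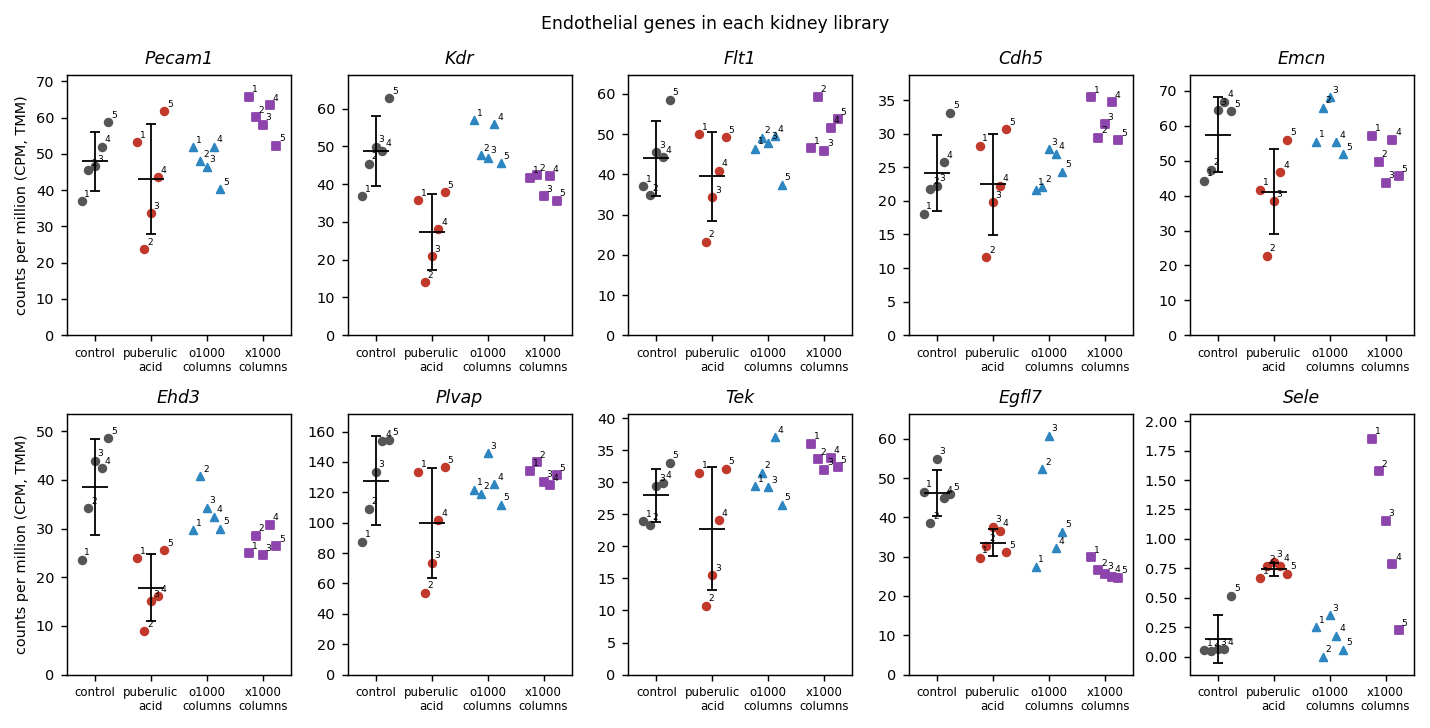
CPM of each of the 10 endothelial genes in all 20 libraries, with replicate or column numbers beside the points and, for control and puberulic acid, the mean (dash) and SD (bar, n = 5). Kdr and Ehd3 sit lower with puberulic acid but touch the lowest control, Egfl7 and Sele do not overlap the controls, and replicate 2 is the lowest treated library in 8 of the 10 panels. The o1000 and x1000 columns have no assigned lot.

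Per kilobase of exon, which allows levels to be compared between genes, Plvap was the most abundant in control kidney at 64.2 CPM per kb. Its range over control libraries, 44.0 to 77.8, lay above that of every other gene of the 10. Egfl7 (mean 12.9), Emcn (10.6) and Pecam1 (7.70) followed, and the control ranges of these neighbours overlapped. Tek, Ehd3, Cdh5, Kdr and Flt1 came next, between 5.93 and 3.26 CPM per kb, again with overlapping neighbours. Sele was at 0.0519 CPM per kb, and its highest control library (0.178) lay below the lowest of Flt1 (2.58).

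Among the receptors, Kdr stood at 36.8, 45.3, 49.9, 48.9 and 62.7 CPM in control replicates 1 to 5. In puberulic acid replicates 1 to 5 it stood at 35.7, 14.01, 20.8, 28.0 and 37.9 CPM. The highest treated library was just above the lowest control, and the other 4 treated libraries were below all controls. Mean Kdr fell from 48.7 ± 9.34 to 27.3 ± 10.01 CPM (SD, n = 5 each). The log2 fold change was -0.83 ± 0.24 (SE; edgeR adjusted p = 0.00941). The call held in all 10 fits that left out a library, with log2 fold changes from -1.01 to -0.68.

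Flt1 encodes VEGFR1, a high-affinity VEGF receptor that in its soluble form acts as a decoy. It stood at 37.1, 34.8, 45.4, 44.2 and 58.5 CPM in controls and at 49.9, 23.3, 34.3, 40.9 and 49.2 CPM with puberulic acid. The groups overlapped over most of their range, and the log2 fold change was -0.15 ± 0.20 (SE; edgeR adjusted p = 0.524). Tek encodes TIE2, the receptor of the angiopoietins. It was at 23.9, 23.4, 29.5, 30.0 and 33.1 CPM in controls and at 31.5, 10.7, 15.5, 24.1 and 32.2 CPM with the compound. Treated libraries lay both above and below the lower controls, and Tek did not pass the test (log2 fold change -0.29 ± 0.26 SE; edgeR adjusted p = 0.349).

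Pecam1 and Cdh5 encode CD31 and VE-cadherin, adhesion proteins of endothelial junctions that serve as general endothelial markers. Pecam1 was at 37.0, 45.6, 46.6, 52.0 and 58.8 CPM in controls and at 53.3, 23.7, 33.6, 43.5 and 61.8 CPM with puberulic acid. The treated range enclosed the control range (log2 fold change -0.15 ± 0.22 SE; edgeR adjusted p = 0.575). Cdh5 was at 18.1, 21.8, 22.3, 25.7 and 33.1 CPM in controls and at 28.2, 11.6, 19.8, 22.2 and 30.7 CPM with the compound. Its log2 fold change was -0.10 ± 0.24 (SE; edgeR adjusted p = 0.719), the smallest of the 10 and of either sign when single libraries were left out, from -0.27 to 0.04. A p above the threshold does not show that these genes were unaltered.

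Emcn and Plvap are surface proteins of capillary and venous endothelium, endomucin being a sialomucin and PLVAP a part of the diaphragms that span fenestrae. Emcn was at 44.3, 47.4, 64.6, 66.9 and 64.2 CPM in controls and at 41.7, 22.8, 38.4, 46.7 and 56.0 CPM with puberulic acid. It missed the threshold (log2 fold change -0.48 ± 0.21 SE; edgeR adjusted p = 0.0597) and passed it in 4 of the 10 fits that left out a library, those without control replicate 1 (0.0344) or 2 (0.0493) and those without treated replicate 4 (0.0497) or 5 (0.0183). Plvap was at 87.4, 109, 134, 154 and 155 CPM in controls and at 133, 53.8, 73.6, 101 and 137 CPM with the compound. The groups overlapped, with a log2 fold change of -0.35 ± 0.25 (SE; edgeR adjusted p = 0.230).

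Ehd3 was at 23.6, 34.2, 44.0, 42.4 and 48.6 CPM in control replicates 1 to 5. In puberulic acid replicates 1 to 5 it was at 23.9, 8.86, 15.04, 16.1 and 25.6 CPM. Treated replicates 1 and 5 reached the level of the lowest control, and the other 3 were below every control. The mean fell from 38.6 ± 9.84 to 17.9 ± 6.86 CPM (SD, n = 5 each). The log2 fold change was -1.10 ± 0.27 (SE; edgeR adjusted p = 0.00352), or 2.15-fold lower. Leaving out single libraries gave -1.30 to -0.95, called in all 10 fits.

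Egfl7 was at 46.6, 38.5, 54.9, 45.0 and 45.8 CPM in controls and at 29.7, 32.8, 37.6, 36.6 and 31.1 CPM with puberulic acid. No treated library reached the lowest control. The log2 fold change was -0.46 ± 0.11 (SE; edgeR adjusted p = 0.00219), the smallest fold among the 4 genes called, with the smallest standard error of the 10. CPM ranges did not overlap between the groups for 2 of the 10 genes, Egfl7 and Sele, against 50.1% of all genes tested.

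Sele counts were 1, 1, 1, 1 and 8 reads in control replicates 1 to 5 and 18, 18, 19, 19 and 22 reads in the treated libraries. Every treated library was above every control, and the treated libraries agreed closely, at 0.668 to 0.805 CPM. Control replicate 5, at 0.519 CPM, stood far above the other 4 controls, which were at 0.0527 to 0.0636 CPM, below the 0.158 to 0.195 CPM that 3 counts are worth in these libraries. Summed counts of 12 and 96 reads gave a ratio of 5.16 per effective library size, with a 95% interval of 2.82 to 10.3 that covers counting error only. Without control replicate 5 the sums were 4 and 96 reads and the ratio 12.6 (4.78 to 47.3). The fitted log2 fold change was 2.31 ± 0.53 (SE; edgeR adjusted p = 0.00228) and 3.53 without control replicate 5. Sele passed the filter on low counts only through the treated group, so its call with the filter is not independent of its rise, and asking for 1 CPM in 5 or more libraries removed it. With no filter, over 30782 genes, the log2 fold change was 2.30 ± 0.58 (SE; edgeR adjusted p = 0.00428). Its level remained low in absolute terms, at 0.256 CPM per kb of exon with the compound against 6.94 for Pecam1.

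**Figure D2:**
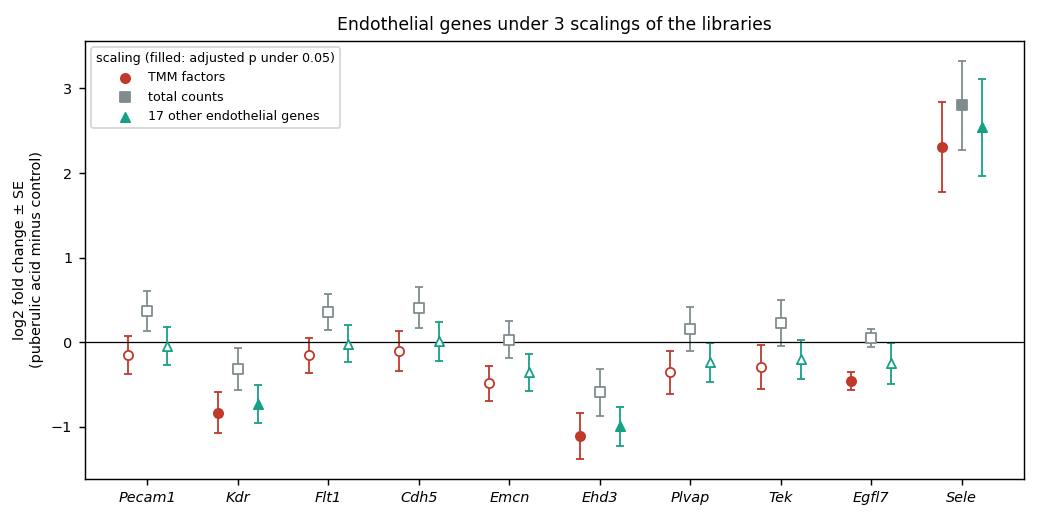
Log2 fold change (puberulic acid minus control) with its standard error for each gene, with libraries scaled by TMM factors, by total counts, or by 17 other endothelial genes; filled points have an adjusted p under 0.05. Kdr and Ehd3 are called under TMM and endothelial scaling and Egfl7 under TMM alone. The calls of Sele follow a filter it passed only through the treated group.

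Ratios of counts within a library show how the endothelial genes moved against each other. The ratio of Kdr to Pecam1 was 0.995, 0.995, 1.07, 0.939 and 1.07 in the controls and 0.670, 0.591, 0.620, 0.644 and 0.613 with puberulic acid. The spread within either group was small beside the gap between them. Ehd3 to Pecam1 was 0.639, 0.75, 0.944, 0.816 and 0.827 in controls and 0.449, 0.373, 0.447, 0.369 and 0.414 with the compound, again without overlap. Cdh5 to Pecam1 was 0.478 to 0.564 in controls and 0.488 to 0.588 with the compound, and Flt1 to Pecam1 0.764 to 1.00 and 0.796 to 1.02. The 2 VEGF receptors therefore moved apart: Flt1 to Kdr was 0.767 to 1.01 in the controls and 1.30 to 1.66 in the treated libraries. Taken against Cdh5, the ratio ranges of 3 of the 9 other genes did not overlap between groups, Kdr (1.89 to 2.24 in controls, 1.05 to 1.26 treated), Ehd3 (1.31 to 1.97, 0.722 to 0.847) and Sele. Of all genes tested, 23.1% had ratios to Cdh5 that did not overlap. No such share is given for ratios to Pecam1, against which the ranges of Sele did not overlap either.

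Ehd3 was also set against Plvap, as a marker of glomerular endothelium against one of peritubular and venous endothelium. The ratio was 0.301 ± 0.0260 in controls and 0.179 ± 0.0183 with puberulic acid (SD, n = 5 each), a log2 difference of -0.75 (exact two-sided permutation p = 0.00794, the smallest that 252 assignments allow). It was lower in 5 of 5 treated libraries than in any control. Any ratio whose groups of 5 do not overlap gets this same p, and no share of all genes is given for ratios to Plvap. The pair was chosen with earlier results of these data known. Plat, which encodes tissue plasminogen activator and was listed with Ehd3 as a gene of glomerular endothelium, went the other way: the same ratio with Plat in place of Ehd3 differed by 3.69 on the log2 scale. The 2 genes chosen for the same vessel bed thus did not move together, and the ratio of Ehd3 to Plvap describes those 2 transcripts and not the vessel beds.

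**Figure D3:**
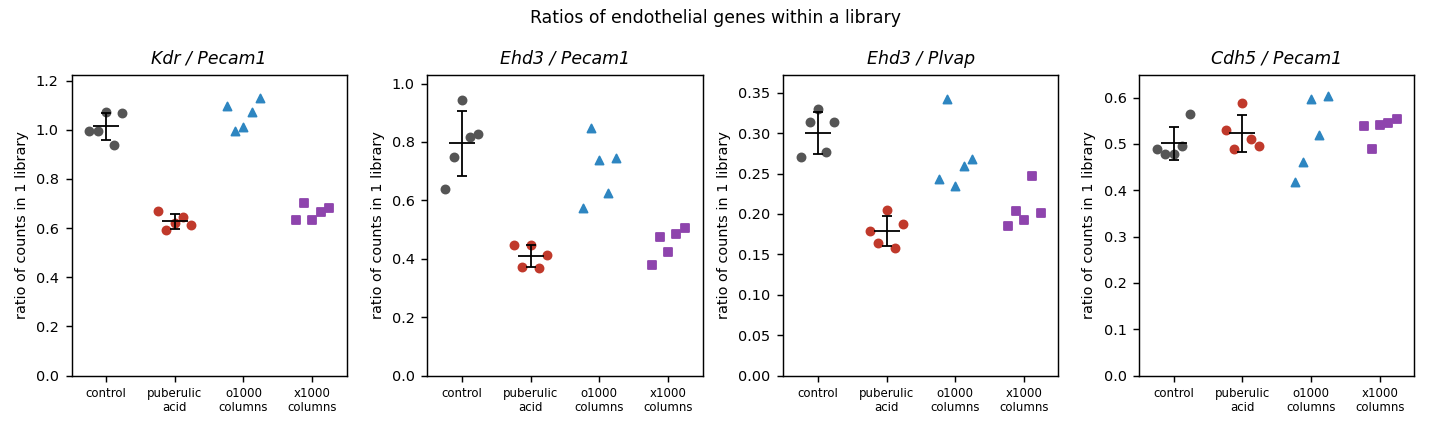
Ratios of counts within each library for Kdr to Pecam1, Ehd3 to Pecam1, Ehd3 to Plvap and Cdh5 to Pecam1, with the mean (dash) and SD (bar, n = 5) for control and puberulic acid. The first 3 ratios are apart between control and puberulic acid, and Cdh5 to Pecam1 overlaps. Ratios to Cdh5 were apart for 23.1% of all genes tested. In the first panel the o1000 columns span 0.993 to 1.13 and the x1000 columns 0.633 to 0.703.

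A further scaling, chosen after the data had been seen, set the size of each library by the geometric mean of 17 other endothelial genes. Podxl, which podocytes also express, was left out of them. Under it, Kdr was at -0.73 (edgeR adjusted p = 0.00857), Ehd3 at -0.99 (0.000842) and Sele, kept by the filter through the treated group, at 2.54 (0.000509) on the log2 scale, and 47.8% of all genes were called. Egfl7 was at -0.25 and was not called (0.420). Cdh5, the nearest to 0, was at 0.01. Relative to other endothelial transcripts, then, Kdr and Ehd3 were low with puberulic acid, and Egfl7 did not pass the test.

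Libraries of a group deviated from its mean in a shared way. Replicate 2 was the lowest treated library for 8 of the 10 genes, Egfl7 and Sele being the exceptions, and replicate 5 was the highest for 7. Among controls, replicate 5 was the highest for 8. As deviations of log2(CPM + 1) from the group mean over the 10 libraries, the 28 pairs among the 8 genes other than Egfl7 and Sele had Pearson correlations of 0.871 to 0.989. Egfl7 correlated with the same 8 genes at only -0.254 to 0.159, and Sele at 0.068 to 0.344. These are descriptions over 10 libraries whose points share sequencing depth and scaling. Egfl7 thus varied between libraries separately from these 8 genes.

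**Figure D4:**
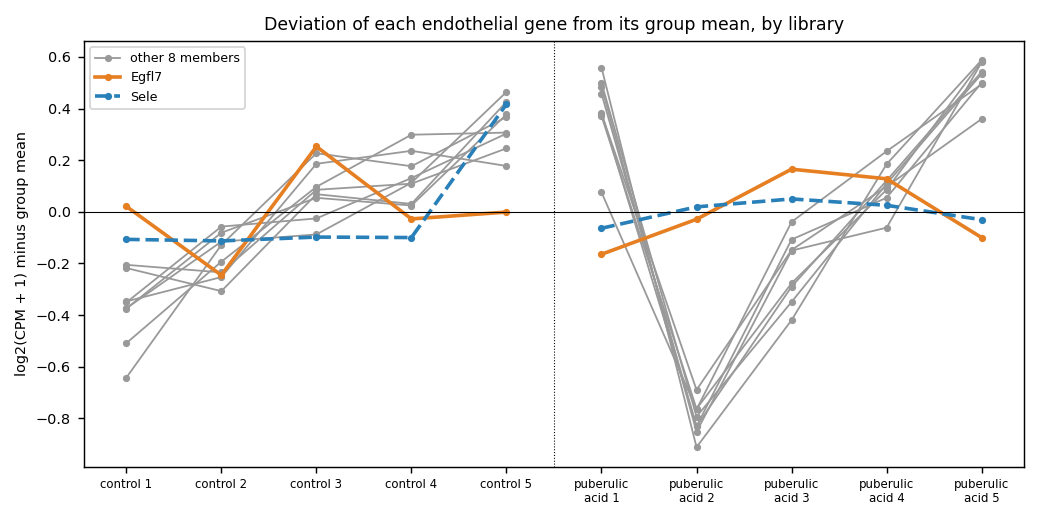
Deviation of log2(CPM + 1) from the group mean for each gene in the 5 control and 5 puberulic acid libraries. Grey lines (8 genes) drop together in treated replicate 2 and rise together in treated replicate 5, while Egfl7 (orange) and Sele (blue, dashed) follow other courses.

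With the 10 endothelial genes themselves left out, 11531 genes with at least 5 CPM were ranked, and the 5 whose deviations were most like the mean of Pecam1, Kdr, Cdh5, Tek and Egfl7 were Shisa3 (r = 0.979), Tie1 (0.978), Cd93 (0.966), Nphs1 (0.965) and Npr3 (0.964), each over 10 libraries. Tie1 and Cd93 encode endothelial surface proteins, and Nphs1 encodes nephrin, the slit diaphragm protein of podocytes. Podocyte markers moved with the same libraries. The summed level of the 7 podocyte genes was 370, 138, 358, 358 and 490 CPM in treated replicates 1 to 5 and 268, 377, 427, 403 and 561 CPM in controls. Of the 7, none rose and 2 fell, Nphs1 (log2 fold change -1.01, edgeR adjusted p = 0.0327) and Cdkn1c (-0.64, 0.0342). Neither fell without control replicate 3, 4 or 5, 1 fell without treated replicate 1 or 3, and 1 of the 7 rose without control replicate 5 or treated replicate 1 or 2. Under total-count scaling 2 of the 7 rose and none fell. How far the share of glomeruli in each library moved Ehd3 and Kdr was not tested.

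Of 18 other general endothelial genes, 3 rose and 5 fell, with a median log2 fold change of -0.29 against 0.05 over all genes. For this and every other list here, 34.2% of all genes tested were called higher and 31.1% lower. Counts near or under those shares are no more than the background of this comparison. Ecscr, an endothelial surface regulator of migration, rose from 4.94 to 15.8 CPM (log2 fold change 1.67, edgeR adjusted p = 4.4e-06). Clec14a, an endothelial C-type lectin, fell from 9.83 to 5.00 CPM (-0.97, 0.00436), and Tspan18, a tetraspanin, from 11.6 to 7.58 CPM (-0.61, 0.00333). Cldn5, the claudin of endothelial tight junctions, fell as well (-0.57, 0.0187), while Tie1, the partner receptor of TIE2, averaged 28.8 CPM in controls and 22.2 CPM after the compound (-0.37, 0.235). The 5 that fell became 3 without control replicate 4 or treated replicate 3, and none of the 18 fell under total-count scaling, where Tie1 changed sign.

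Of 15 endothelial transcription factors, 5 rose and 3 fell (median log2 fold change 0.03), where 34.2% of all genes tested were called higher and 31.1% lower. Klf4, a Krüppel-like factor, rose from 7.49 to 38.5 CPM, Ets1, an ETS factor, from 20.6 to 60.2 CPM, and Hhex, a homeobox factor, from 2.03 to 3.96 CPM. The 3 that fell, Sox17, Gata2 and Foxo1, were not called under total-count scaling, where 7 of the 15 rose and 56.4% of all genes were called higher. Not all of these factors are restricted to endothelium.

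By vessel bed, 2 of the 6 glomerular endothelial genes tested rose and 1 fell. Plat rose from 58.4 ± 16.9 to 554 ± 74.8 CPM (SD, n = 5 each; log2 fold change 3.25, edgeR adjusted p = 8.77e-08) and Nostrin, which encodes a partner of endothelial nitric oxide synthase, from 2.46 to 4.56 CPM. The summed level of the list averaged 84.2 CPM in controls and 578 CPM with the compound and was mostly Plat. Which cells of the whole kidney made Plat was not tested. Smad6, an inhibitor of BMP signalling, fell from 12.0 to 9.25 CPM. Its call was lost without control replicate 3 or 5 or treated replicate 2, and its sign flipped under total-count scaling; without treated replicate 5, 2 of the 6 fell. Of 5 peritubular and venous genes, none rose and 2 fell, Nr2f2 (88.3 to 48.9 CPM), the venous transcription factor COUP-TFII, and Igfbp3 (207 to 112 CPM). That count was 4 without control replicate 1 or treated replicate 1 or 5, and 0 under total-count scaling.

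Of 9 arterial genes, 3 rose and 1 fell, and which cells of the whole kidney made them was not tested. Unc5b, a netrin receptor, rose from 7.54 to 38.8 CPM, and Efnb2, ephrin-B2, from 15.5 to 29.2 CPM, while Dll4, a Notch ligand of arterial and sprouting endothelium, fell from 11.6 to 6.64 CPM. The number that fell was 2 without control replicate 1, 3 without treated replicate 1 or 5, and 0 under total-count scaling. Of 5 lymphatic genes, 3 fell and none rose, Reln, an extracellular glycoprotein, from 3.44 to 0.821 CPM, and Ccl21a and Mmrn1. Under total-count scaling 1 of them fell and 1 rose. Lyve1, a defining lymphatic marker, averaged 0.0597 CPM in controls and 0.209 CPM after the compound and was not tested.

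The ligands of the VEGF receptors moved in both directions. Vegfa fell from 152 ± 18.2 to 70.1 ± 8.41 CPM (SD, n = 5 each; log2 fold change -1.11, edgeR adjusted p = 3.51e-06), with no overlap between groups. Vegfb, a ligand of VEGFR1, fell from 56.6 to 22.2 CPM and Vegfd, a ligand that in mouse binds VEGFR3, from 5.24 to 2.44 CPM. Pgf, placental growth factor and a ligand of VEGFR1, rose from 0.480 to 1.23 CPM, and the co-receptors Nrp1 (41.9 to 59.1 CPM) and Nrp2 (13.4 to 26.6 CPM) rose too. In all, 3 of the 7 rose and 3 fell, and these 6 directions and calls also held under total-count scaling, where Vegfc was called as well. The counts were the same in all 10 fits that left out a library. Tubule cells and podocytes also make Vegfa, and the tubule markers fell in the same libraries, from 9688 to 12218 CPM summed in controls to 3387 to 6758 CPM with the compound. Their part in the fall of Vegfa was not tested.

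In the angiopoietin pathway, 2 of 6 genes rose and 2 fell. Angpt1, the TIE2 agonist made by mural and other stromal cells, fell from 10.8 to 6.16 CPM (log2 fold change -0.81, edgeR adjusted p = 0.00905), and Angpt2, the context-dependent ligand stored in endothelium, from 11.05 to 6.04 CPM (-0.87, 0.0198). Neither was called under total-count scaling (-0.30 and -0.36), and 1 of the 2 calls was lost without control replicate 1. Svep1, an extracellular matrix protein, and Angpt4, a further TIE2 ligand, rose by 0.97 and 1.02 on the log2 scale, and 1 of these calls was lost in 7 of the 10 fits that left out a library, all but those without control replicate 2 or 5 or treated replicate 1. Of 7 tip cell and sprouting genes, 4 fell, including Angpt2, Dll4 and Esm1 (23.1 to 12.3 CPM), and 1 rose, Adm, adrenomedullin, from 8.25 to 17.7 CPM. A second gene rose without treated replicate 1, and under total-count scaling none fell and 2 rose.

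**Figure D5:**
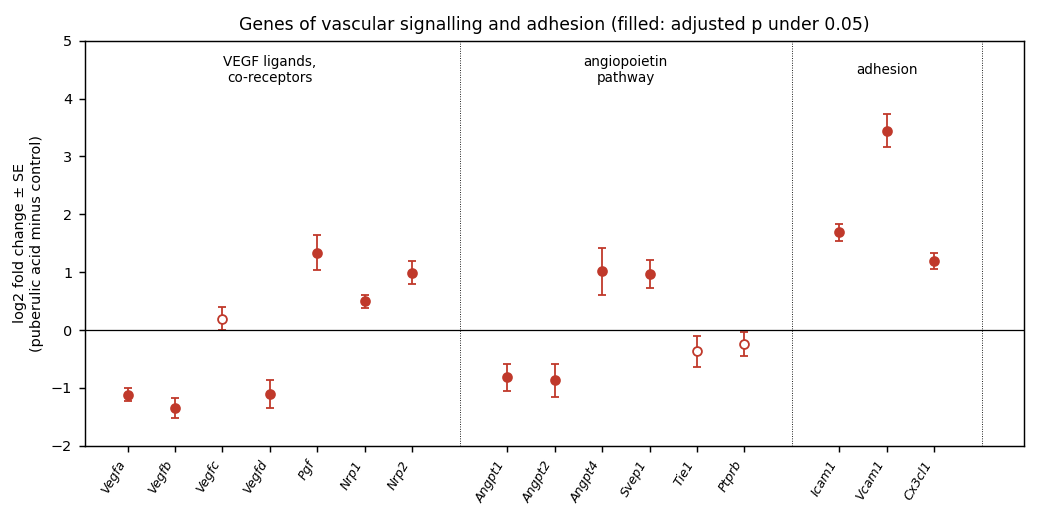
Log2 fold change (puberulic acid minus control) with its standard error for the tested genes of 3 lists: VEGF ligands and co-receptors, the angiopoietin pathway and adhesion molecules; filled points have an edgeR adjusted p under 0.05. Vegfa, Vegfb and Vegfd lie below 0 while all 3 adhesion genes lie above it, and Vcam1 is the highest point at 3.45.

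Of 6 genes for adhesion molecules of activated endothelium, 3 were tested and all 3 rose, where 34.2% of all genes tested were called higher. Vcam1, the leukocyte integrin ligand VCAM-1, went from 9.42 ± 4.16 to 103 ± 26.04 CPM (SD, n = 5 each; log2 fold change 3.45, edgeR adjusted p = 8.49e-07). Icam1 went from 24.5 to 78.9 CPM (1.69) and Cx3cl1, the membrane-bound chemokine fractalkine, from 80.1 to 184 CPM (1.20), each with no overlap between groups. Selp, P-selectin, averaged 0.168 CPM in controls and 0.465 CPM after the compound, with 0 to 8 and 5 to 20 reads per library, and was not tested. Icam1, Vcam1 and Cx3cl1 are also made by tubule and stromal cells, so their levels in whole kidney are not those of endothelium alone.

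On the side of the leukocyte, 4 of 7 tested genes for E-selectin ligands rose and 1 fell. Cd44, a glycoprotein that can carry the ligand, rose from 2.10 to 89.3 CPM, Selplg, the selectin ligand PSGL-1, from 3.19 to 17.4 CPM, and Fut4, a fucosyltransferase, from 1.25 to 4.62 CPM. Gcnt1, a branching enzyme of O-glycans, fell from 565 to 189 CPM. Under total-count scaling 6 of the 7 rose and 1 fell, where 56.4% of all genes were called higher. Cd44 is also made by injured tubule cells, and Gcnt1 was abundant in the control kidney. Leukocyte markers rose beside them, 4 of 7 tested with none falling, and their summed level was 74.8 to 171 CPM in controls and 142 to 449 CPM with the compound. Of the defining markers, Ptprc (CD45) went from 8.62 to 32.7 CPM and Itgam from 1.94 to 26.5 CPM. The count was 6 without treated replicate 1 and under total-count scaling. Their part in Sele was not tested.

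Of 11 vasoactive and haemostatic genes, 5 rose and 2 fell, and which cells of the whole kidney made them was not tested. Procr, the endothelial protein C receptor, rose from 1.35 to 9.36 CPM, and Edn1, endothelin 1, from 1.52 to 7.39 CPM. Nos3, endothelial nitric oxide synthase, rose from 6.08 to 9.99 CPM (log2 fold change 0.72, edgeR adjusted p = 0.00244), while Vwf, von Willebrand factor, was at 2.79 and 2.28 CPM (-0.28, 0.645). The genes that fell, Ece1 and F8, were 1 in number in the fits without any of the controls 1 to 5 or treated replicates 2 to 5, and 3 genes fell without treated replicate 1. Under total-count scaling 5 rose and 1 fell, Ece1, while F8 was not called (-0.68, edgeR adjusted p = 0.209).

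Other cells of the vessel wall and blood differed too. Mural cell markers rose for 2 of 8, Acta2 (28.2 to 192 CPM) and Pdgfrb (26.5 to 56.5 CPM), and fell for 2, among them Kcnj8 (9.10 to 3.44 CPM), or for 4 without control replicate 1 or treated replicate 5. Under total-count scaling 3 of the mural markers rose and 1 fell. Fibroblast markers rose for 4 of 5, with Col1a1 going from 19.98 to 353 CPM and Col1a2 from 43.1 to 402 CPM. Erythroid markers fell for 3 of 4, Hba-a1 going from 390 to 28.3 CPM, Hbb-bs from 722 to 64.0 CPM and Alas2 from 13.2 to 1.13 CPM. Of 3 platelet markers tested, Pf4 and Ppbp rose and Itga2b fell, 1 of the 2 rises being lost in 8 of the 10 fits that left out a library, and the summed level of the list was 7.66 to 13.0 CPM in controls and 4.53 to 11.7 CPM with the compound. Platelets carry Pecam1 and Selp, and their part in these levels was not tested.

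In the o1000 columns, Kdr ranged from 45.5 to 56.8 CPM, Ehd3 from 29.7 to 40.7 CPM and Pecam1 from 40.3 to 52.0 CPM. Egfl7 was spread widely there, at 27.5, 52.2, 60.8, 32.1 and 36.4 CPM in columns 1 to 5. Sele had 4, 0, 5, 3 and 1 reads. In the x1000 columns, Kdr ranged from 35.6 to 42.3 CPM, Ehd3 from 24.5 to 30.8 CPM and Pecam1 from 52.3 to 65.7 CPM. Egfl7 was at 24.6 to 29.8 CPM there. Sele had 53, 41, 34, 21 and 5 reads. The ratio of Kdr to Pecam1 was 0.993 to 1.13 in the o1000 columns and 0.633 to 0.703 in the x1000 columns, and that of Ehd3 to Plvap 0.235 to 0.342 and 0.185 to 0.247.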

How the data were processed

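The deposited table holds estimated counts per gene, which the authors made from poly(A)-selected, strand-specific kidney libraries. The submitters' processing notes list fastp 0.22.0, FastQC 0.12.1, MultiQC 1.28, Salmon 1.10.3, DESeq2 and the GRCm39 build, without roles. Estimated counts were rounded to whole numbers. The 5 control and 5 puberulic acid libraries were compared with edgeR 4.0.16 (limma 3.58.1, R 4.3.3): filterByExpr, TMM factors, glmQLFit and glmQLFTest, Benjamini-Hochberg adjustment over 16266 genes, threshold 0.05. The standard error of a log2 fold change was its size over the square root of the F statistic. Totals were 18409877 to 24705587 counts per library, and 3 counts are worth 0.158 to 0.195 CPM in controls and 0.0964 to 0.128 CPM in treated libraries. Gene lengths are merged exons of GENCODE M21 (GRCm38) and promoters are from RefSeq (GRCm38.p6), while the counts use GRCm39, so coordinates belong to the promoters alone. The labels do not say that the libraries of a group are separate animals. The p-values therefore weigh a difference between groups against the spread between these libraries.

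The 10 genes, the lists and the tests were chosen with earlier results of these data known. Beyond the 10 genes and some named in advance, each list names up to 3 called genes with the largest fold change, a mean of at least 1 CPM and groups that do not overlap. A gene that this rule names is not reported here. Others were named after their values were seen, to account for a count or a change of call. The 10 o1000 and x1000 columns were scaled with the rest and not tested. Calculations in Python used numpy 2.4.6, scipy 1.17.1 and pandas 2.3.3. Alternatives were other scalings, other filters, a robust fit, DESeq2 1.42.0, a replicate block, GC and length offsets, and leaving out each library. The code was tested on simulated data.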

Additional observations from a re-analysis of the deposited data

Results flagged for a closer look

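Sele in control replicate 5 stood at 0.519 CPM (8 reads), while the other 4 controls had 1 read each. Its gap to the nearest control was 0.977 of the range of the group, above Dixon's critical value of 0.71 for 5 samples. Of 22 groups of values searched, 1 was found, where chance gives about 1.1.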

How the results depend on the processing

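Under total-count scaling, the calls were 9179 higher and 2526 lower, with 1 call and 0 falls among the 10 endothelial genes. The log2 fold changes of 7 genes then changed sign, to 0.37 for Pecam1, 0.36 for Flt1, 0.41 for Cdh5, 0.0320 for Emcn, 0.16 for Plvap, 0.22 for Tek and 0.0480 for Egfl7, because this scaling moves the median of all genes by about as much. Endothelial scaling, chosen after seeing the data, called 2730 genes lower and put Cdh5 at 0.0133. With a filter of 1 CPM, 0 endothelial genes were called higher, since Sele is removed. Plat in place of Ehd3 turned the ratio to Plvap to 3.69. Leaving out single libraries gave Cdh5 from -0.270 to 0.0443, and the cause was not tested.

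The replicate numbers did not pair the samples: same-numbered libraries correlated at -0.172 to 0.039, and 0 controls correlated best with their own number. With the replicate block, 10325 genes and 5 endothelial genes were called, the fifth being Emcn (-0.52, edgeR adjusted p = 0.0159). With GC and length offsets as well, 10475 genes and 5 endothelial genes were called. DESeq2 also called Emcn (adjusted p = 0.0490). In all, 189 alternative values of the 10 log2 fold changes kept their sign and call, 10 changed sign, 7 gained a call and 3 lost it with the same sign. Egfl7 under total counts, 1 of the 10 that changed sign, lost its call as well. Low counts limit Sele and Selp.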
